A study of Mus musculus with 2 samples.

Results

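The STAT transcription factors and the feedback inhibitors of the SOCS family were compared between primary and self-renewing macrophages. The genes were Stat2, Stat3, Stat4, Stat5a, Stat5b, Stat6, Socs1, Socs3 and Cish, and a probe was taken as a member when its transcript accession named 1 of these genes. This gave 12 probes of 56598 gene probes compared, and 9 genes of 22910 named genes on the array. Both cultures came from bone marrow of C57BL/6 mice, labelled male, and received 100 ng/ml recombinant human M-CSF with 10% heat-inactivated serum. The mice's age is not given in the sources used here. Primary macrophages were the adherent monocyte-derived cells collected at day 5 according to the labels, and self-renewing macrophages were those after passage 4. By the methods the latter arose as several colonies when most cells stopped dividing and began to die, and bulk cells were the default, with no separate statement for the array. Cytokine stimulation other than M-CSF is named for neither sample. RNA of each culture was hybridised to 1 Agilent mouse array with 1 dye, so that no difference below has a replicate check and none was tested.

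STAT proteins wait in the cytoplasm until a cytokine receptor, through its JAK kinases, phosphorylates them on a tyrosine. They then pair, enter the nucleus and switch on target genes, among which are the SOCS genes and Cish, whose products bind the receptor or the kinase and end the signal. SOCS transcripts are short-lived and often read as a trace of recent STAT activity, whereas most STAT proteins are controlled by phosphorylation, which an RNA array does not measure. The M-CSF receptor, on which both cultures depend, is itself a tyrosine kinase.

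The signal of each probe is given as its background-corrected intensity, and on the log2 scale relative to the 75th percentile of the array's gene probes, which stood at 434 for primary and 446 for self-renewing macrophages. A probe counted as measured on an array when the scanner software marked it well above background. The error after ± is that of the scanner software for the single spot, and it covers neither culture nor labelling. For the 11 member probes measured on both arrays it came to 0.20 to 0.22 log2 for the difference, whereas probes for the same gene differed by a root mean square SD of 0.33 log2 over 5077 genes. Of 10 macrophage markers, among them Adgre1, Itgam (Mac-1), Cd68 and Csf1r, all 10 were well above background on both arrays. Of 6 Y-linked genes, 4 were measured in self-renewing and 0 in primary macrophages, and Xist was measured in the latter only, which goes against the label of male mice for the primary culture. The part of the mice's sex in the differences below was not tested. In the values that the authors had scaled, every difference is 0.19 log2 further towards the self-renewing macrophages.

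Of the 9 member genes, 8 were measured on both arrays and differed by less than 2-fold, and Stat4 was the exception. Members higher by 2-fold or more in the self-renewing macrophages numbered 0, where 4.76% of the 15515 named genes measured on at least 1 array were this much higher. Members lower by 2-fold or more numbered 1, where the share of all genes was 8.38%. Among all genes past 2-fold, 36.2% were higher in the self-renewing macrophages, and 49.2% with the authors' scaled values. The median difference over the members was 0.03 log2, beside -0.02 log2 over all genes. With a threshold of 1.5-fold, chosen after the values were seen, 5 of the 6 STAT genes lay within the threshold, as did 74% of all genes, and 0 of the 3 inhibitors did. Socs1 came within it with the authors' scaled values, at -0.50 log2, and with a model-based background correction Socs1 and Cish both did, at -0.44 and 0.40 log2. The inhibitors were split, with Socs3 and Cish higher and Socs1 lower, where 10.9% of all genes were higher by 1.5-fold or more and 15.1% lower.

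**Figure D1:**
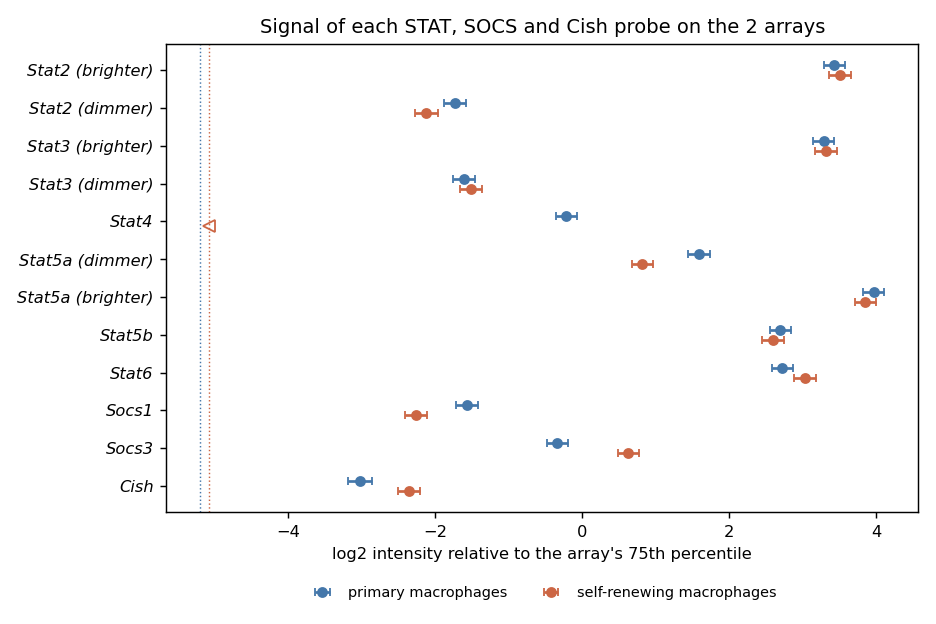
Signal of the 12 member probes in primary and self-renewing macrophages, as log2 intensity relative to the array's 75th percentile. Points are single spots with the scanner software's error, dotted lines mark the lowest signal well above background on each array, and the open triangle places Stat4 at that line for self-renewing macrophages, where it was not well above background. Only Stat4 left the measured range, and signals of different probes cannot be ranked against each other.

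Stat4, which transmits IL-12 signals in T and NK cells and is also found in activated monocytes and dendritic cells, was the one STAT gene detected in 1 cell type only. Its single probe had an intensity of 373 ± 37.4 in primary macrophages and of 3.27 ± 3.29 in self-renewing macrophages. The first lay 0.22 log2 below the array's 75th percentile, at -0.22 log2, and the second was not well above background. Set against the lowest signal that passed as well above background in self-renewing macrophages, -5.08 log2, Stat4 was at least 29.2-fold lower in the self-renewing macrophages, a bound of -4.87 log2. Of the 15515 named genes measured on at least 1 array, 3.35% were likewise measured in primary macrophages alone and lower by at least 2-fold. The bound was -2.58 log2 with a model-based background correction, and the unbounded difference was -6.87 log2. In such bulk cultures, fewer cells of a type and less RNA per cell cannot be told apart.

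Markers of other cell types were therefore set beside Stat4. Of 10 markers of T and NK cells, 6 were measured, with a median of -0.06 log2, and the 5 measured on both arrays lay within 2-fold. The NK cell marker Klrb1c was measured in primary macrophages only. Its bound of -0.20 log2, and of -0.99 and -0.20 log2 by its other probes, leaves a larger difference possible. The summed level of the 6 markers was 3.17 log2 in primary and 3.08 log2 in self-renewing macrophages. Cd4 alone stood at 2.48 and 2.42 log2, so that this sum says little about the dimmer markers. Of the CD3 chains, which define T cells, Cd3e was measured on both arrays at 1.23 and 1.18 log2 and Cd3d at -3.71 and -3.44 log2. The other Cd3e probe was far dimmer, at -2.11 and -2.30 log2, and the other Cd3d probe was not well above background on either array. Cd3g, Cd8a and the NK cell receptor Ncr1 were not well above background on either array. For dendritic cells, 5 of 7 markers were measured, and Xcr1 and Clec9a were not well above background on either array. Flt3 and Cd209a were measured in primary macrophages only, with bounds of -0.41 and -0.64 log2 that leave a larger difference possible. The other Cd209a probe had a bound of -1.18 log2. Zbtb46 was at 0.62 log2, and its other probe, measured in self-renewing macrophages only, had a bound of 0.86 log2. Siglech was at 0.09 log2, and its other probe was not well above background on either array. Itgae was measured in self-renewing macrophages only, with a bound of 0.52 log2. The median over these 5 markers was 0.09 log2, which is the value of Siglech. Of 8 neutrophil markers measured, 7 were at least 2-fold lower in the self-renewing macrophages, with summed levels of 6.72 log2 and 2.71 log2 on the primary and self-renewing arrays. Of 5 B cell markers measured, 2 were at least 2-fold lower, with summed levels of 0.99 log2 in primary and -1.73 log2 in self-renewing macrophages. By the brightest probe measured, at least 1 marker was 2-fold lower in 5 of 8 lists of other cell types, and 0 lists had a marker 2-fold higher. Over all named genes measured, 8.38% were at least 2-fold lower and 4.76% higher. The part of other cells in the Stat4 difference was not tested.

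Genes that STAT4 is known to act on were set beside it. Of 7 such genes, 5 were measured, and 1 was at least 2-fold lower, where 8.38% of all named genes measured were. This was Il18rap, a subunit of the IL-18 receptor, at -2.49 log2, and at -1.01 log2 with the model-based background correction. The median over the 5 genes was 0.10 log2, and Ifng, the best known target, was not well above background on either array. Upstream of STAT4, the IL-12 receptor subunit Il12rb1 was measured in primary macrophages only and was at least 8.39-fold lower in the self-renewing macrophages, a bound of -3.07 log2 that became -1.18 log2 with that correction. The other subunit, Il12rb2, differed by -0.12 log2.

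Stat2, the partner of IRF9 in the interferon-activated complex ISGF3, differed little. Its brighter probe had an intensity of 4681 ± 468 in primary and 5077 ± 508 in self-renewing macrophages, a difference of 0.08 ± 0.20 log2. A dimmer probe for the same transcript had 130.5 ± 13.4 and 102.5 ± 10.8, which gave -0.39 ± 0.21 log2. The probes thus pointed in opposite directions, and for each the 95% interval from the scanner's error took in 0.

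Stat3, which carries signals of the IL-6 and IL-10 families, differed least of the members on this scale, whereas with the authors' scaled values it was at 0.22 log2 and both Stat5 genes lay closer to 0. Its brighter probe read 4230 ± 423 in primary and 4453 ± 445 in self-renewing macrophages, a difference of 0.03 ± 0.20 log2. The other probe, named for a second transcript of the gene, gave 0.09 ± 0.21 log2. The interval of the brighter probe ran from -0.37 to 0.43 log2, so that a change of 2-fold lay outside it, as far as the scanner's error goes.

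Stat5a and Stat5b, close relatives that act downstream of GM-CSF, IL-3 and other growth factors, gave nearly the same difference by their brightest probes. That of Stat5a had an intensity of 6783 ± 678 in primary and 6444 ± 644 in self-renewing macrophages, or -0.11 ± 0.20 log2. The single Stat5b probe had 2806 ± 281 and 2699 ± 270, or -0.10 ± 0.20 log2. With the authors' scaled values both were above 0, at 0.07 and 0.09 log2. A dimmer Stat5a probe stood apart, with 1305 ± 130 in primary and 788 ± 78.8 in self-renewing macrophages. Its difference was -0.77 ± 0.20 log2, with an interval from -1.17 to -0.37 log2, and the mean over both Stat5a probes was -0.44 log2. Stat5a and Stat5b are alike in sequence, and whether a probe also binds the other transcript was not tested. Stat5b, Stat5a and Stat3 follow each other on chromosome 11 with no other coding gene between them in the GRCm38.p6 annotation, and their brightest probes lay between -0.11 and 0.03 log2.

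Stat6, which carries IL-4 and IL-13 signals, had the largest positive difference of the STAT genes. Its intensity was 2863 ± 286 in primary and 3651 ± 365 in self-renewing macrophages. The difference of 0.31 ± 0.20 log2 had an interval from -0.09 to 0.71 log2. It stayed above 0 under 8 other ways of processing, from 0.29 to 0.50 log2.

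By the brightest probes, the 3 inhibitors were further apart between the cell types than 5 of the 6 STAT genes. The dimmer Stat5a probe, at -0.77 log2, was further apart than Socs1 and Cish. Socs3, which blocks signalling by IL-6-type receptors, had an intensity of 343 ± 34.4 in primary macrophages and 689 ± 69.0 in self-renewing macrophages. It was 1.95-fold higher in the latter, at 0.96 ± 0.20 log2, with an interval from 0.56 to 1.36 log2. This was just under the 2-fold threshold, and with the authors' scaled values it was above it, at 1.15 log2. Cish, a target of STAT5 that dampens cytokine receptors of this arm, had 53.3 ± 5.99 and 87.2 ± 9.24 on the primary and self-renewing arrays. Self-renewing macrophages were higher by 1.59-fold, at 0.67 ± 0.22 log2, with an interval from 0.23 to 1.11 log2. Its difference was 0.40 log2 with the model-based background correction. Socs1, which inhibits JAK kinases and restrains interferon signalling, went the other way. Its intensity was 145.8 ± 14.8 in primary and 93.1 ± 9.82 in self-renewing macrophages. It was 1.61-fold lower in the latter, at -0.69 ± 0.21 log2, with an interval from -1.10 to -0.27 log2, and stayed below 0 under 8 other ways of processing, from -0.71 to -0.44 log2. Each of the 3 genes was measured by 1 probe.

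**Figure D2:**
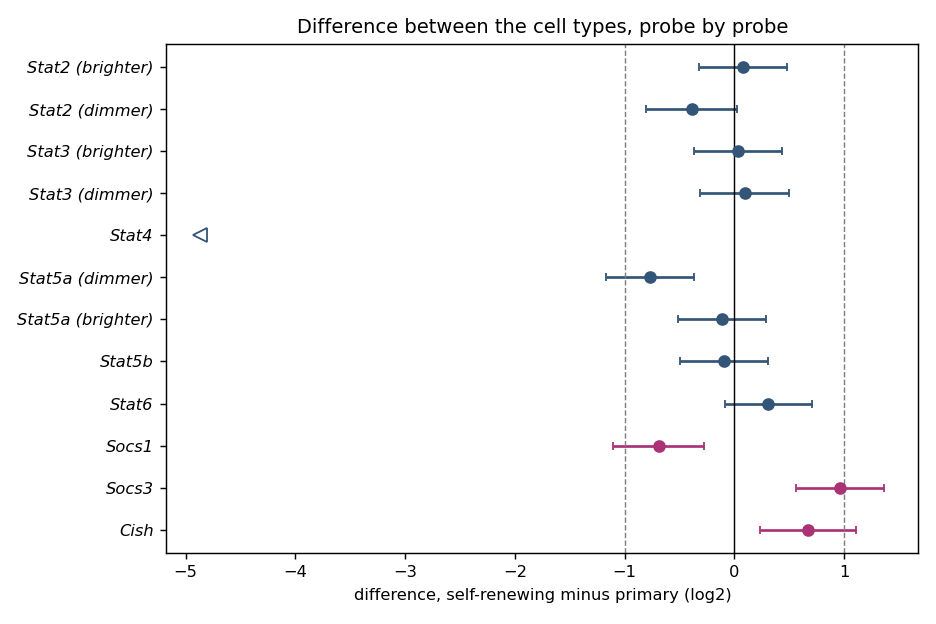
Difference between self-renewing and primary macrophages for each member probe, in log2, with STAT probes in blue and Socs1, Socs3 and Cish in purple. Bars are 95% intervals from the scanner software's error of the single spots, the open triangle is the bound for Stat4 at -4.87 log2, and dashed lines mark 2-fold. The intervals of Socs3, Cish, Socs1 and the dimmer Stat5a probe leave out 0.

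Sequences around or before the transcript start are shown for the members whose promoter held a motif searched for here, since the feedback inhibitors are themselves target genes. Promoter windows of 300 bases, 250 before and 50 after the start, were found for all 9 genes in RefSeq on GRCm38.p6, 12 windows in all because some genes have several starts. The motifs searched on both strands were the gamma-activated site TTCNNNGAA, the same half-sites with 1 more base between them, a wider spacing that STAT6 binds, and the core of the interferon-stimulated response element, GAAANNGAA, whose reverse complement is TTCNNTTTC. Capitals mark the matches, positions count from 1 at the transcript start given in that table, and stretches that another transcript may cover are shown over 30 bases at most. Cish held the gamma-activated site at 1 to 9 and at 12 to 20, and Socs3 held it at -154 to -146. Socs1 held the interferon core at -83 to -75 and, overlapping it, at -77 to -69. For Stat4 the core lay at -97 to -89 before 1 of its starts, and in Stat2 at -221 to -213, followed by the wider spacing at -210 to -201.
Cish, chr9:107296599-107296688, plus strand: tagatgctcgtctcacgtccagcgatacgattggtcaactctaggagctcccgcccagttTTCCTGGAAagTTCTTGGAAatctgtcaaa
Socs3, chr11:117969501-117969530, minus strand: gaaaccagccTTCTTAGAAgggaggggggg
Socs1, chr16:10785537-10785676, minus strand: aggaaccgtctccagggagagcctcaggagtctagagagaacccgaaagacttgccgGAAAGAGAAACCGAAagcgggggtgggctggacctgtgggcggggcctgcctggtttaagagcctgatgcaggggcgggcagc
Stat4, chr1:52008133-52008162, plus strand: aatgtcttcaGAAAGTGAAatttagaacgg
Stat2, chr10:128270248-128270387, plus strand: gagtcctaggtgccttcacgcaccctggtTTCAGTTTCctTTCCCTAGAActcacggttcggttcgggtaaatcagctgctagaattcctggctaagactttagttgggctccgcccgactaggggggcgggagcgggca
Of 32851 promoter windows of this length, 8.30% held the gamma-activated site, 6.95% the wider spacing and 8.56% the interferon core. The same motifs were in 2, 1 and 3 of the 12 member windows. Of the 5 genes shown, Cish was at 0.67 log2, Socs3 at 0.96 log2, Socs1 at -0.69 log2 and Stat2, by its brighter probe, at 0.08 log2. Stat4 had a bound of -4.87 log2. Whether a motif goes with the direction of a difference was not tested. A match is a description of the letters only, and binding was not measured.

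**Figure D3:**
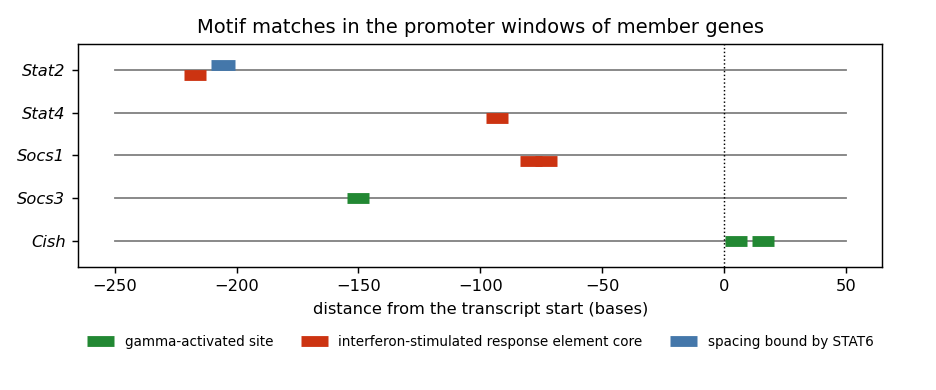
Positions of motif matches in the promoter windows of the 5 member genes that hold one, in bases from the transcript start, with the window from 250 bases before to 50 bases after it as a grey line. Green is the gamma-activated site, red the interferon core and blue the wider spacing. The matches of Cish lie at the start itself, those of the other genes before it.

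Of all named genes measured, 74% lay within 1.5-fold, 4.76% were at least 2-fold higher and 8.38% lower. Around the members, the 4 JAK kinases were within 1.5-fold. All 4, namely Jak1, Jak2, Jak3 and Tyk2, were measured on both arrays and lay between -0.12 and 0.14 log2. The other SOCS genes also stayed within 2-fold. Of these 5, Socs6 was at -0.64 log2, Socs4 at -0.24 log2, Socs7 at 0.21 log2, Socs5 at 0.33 log2 and Socs2 at 0.36 log2. Socs2, like Cish a STAT5 target, was near background, and its other probe, which only the primary array measured, had a bound of -0.85 log2. Of 11 further inhibitors, among them the PIAS proteins and the phosphatase SHP-1 (Ptpn6), 1 was past 2-fold in the higher direction and 0 in the lower. This was Usp18, which blocks the type I interferon receptor and is itself induced by interferon, at 1.57 log2. Among 10 adaptors and partners, 1 was at least 2-fold higher, the STAT3- and STAT5-binding adaptor Stap2, at 77.0-fold or 6.27 log2, and at 4.99 log2 with the model-based background correction. Irf9, which binds STAT2, was at 0.47 log2.

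Receptors spread more widely than the 4 JAK kinases, although a range tends to widen with the number of genes. Of 32 cytokine receptor genes, 28 were measured, 2 of them higher by 2-fold or more and 5 lower, with a median of 0.08 log2. Of all named genes measured, 4.76% were this much higher and 8.38% lower. Within 1.5-fold lay 17 of the 28 receptors, beside 74% of all named genes measured. Those higher were Il21r, the receptor of IL-21, at 2.06 log2 and Il4ra at 1.90 log2. Il4ra encodes the chain through which IL-4 and IL-13 engage STAT6, and its dimmer probe gave 1.18 log2. Il13ra1, which joins Il4ra in the receptor for IL-13, was measured in primary macrophages only and was at least 33.3-fold lower in the self-renewing macrophages, a bound of -5.06 log2. Il27ra had a bound of -4.04 log2, and the model-based background correction brought these bounds to -2.93 log2 for Il13ra1 and -1.81 log2 for Il27ra. Il7r and Il3ra were at -2.98 and -2.59 log2, where Il3ra was named after its value was seen. Il2rg, the chain that pairs with Il4ra in the other IL-4 receptor, was at 0.83 log2. Of the 5 genes lower, 2 were so when only probes well above background on both arrays were used, and with the authors' scaled values 4 receptors passed 2-fold upwards. Of 26 ligand genes, 12 were not well above background on either array, among them Il6, Ifnb1, Ifng, Csf2 and Lif. Il10, an activator of STAT3, was at -3.20 log2, and with the model-based background correction at -1.62 log2. The other ligands past 2-fold lay close to background, Clcf1 with a bound of -1.11 log2 and Tslp with a bound of 1.59 log2, and neither passed 2-fold with the model-based background correction, at -0.16 and 0.42 log2. Clcf1 also fell short of it with the authors' scaled values, at -0.92 log2, and with quantile normalization, at -0.87 log2.

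Known targets were grouped by the STAT protein that acts on them. The lists were written with earlier results of these data known, and the targets answer to other factors as well. For comparison with these lists, 4.76% of all named genes measured were at least 2-fold higher and 8.38% lower. The median over all named genes measured was -0.02 log2. Of 22 targets of the STAT2-containing complex ISGF3, 20 were measured, 4 of them higher in the self-renewing macrophages by 2-fold or more and 1 lower. Their median was 0.60 log2, with 15 above 0 and 5 below, and it stayed between 0.58 and 0.79 log2 under 8 other ways of processing. The 4 genes were the antiviral Ifit3 at 1.86 log2, Ifit1 and Bst2 (tetherin), each at 1.30 log2, and Ifit2 at 1.14 log2, and 7 genes passed 2-fold with the authors' scaled values. Ifi44 was measured in primary macrophages only, with a bound of -2.20 log2, and at -0.65 log2 with the model-based background correction. Of 13 interferon-gamma targets, 11 were measured with a median of 0.34 log2. Cxcl10, a chemokine, was at 1.52 log2 and Ciita, the master switch of MHC class II genes, at -3.29 log2 (-2.30 log2 with that correction).

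The 10 STAT3 targets had a median of 0.38 log2 and were split, with 1 gene higher by 2-fold or more and 3 lower. Saa3, an acute-phase gene, was at 3.09 log2, and Bcl3, an IκB protein, at 0.96 log2. Timp1, Nfil3 and Lrg1 were at -1.96, -1.30 and -1.15 log2. With the authors' scaled values 3 STAT3 targets passed 2-fold upwards and Lrg1 no longer passed it downwards, at -0.96 log2, nor with the model-based background correction, at -0.46 log2. Of 8 STAT5 targets, 7 were measured with a median of 0.42 log2. Id1 was at 3.18 log2, whereas the cyclin gene Ccnd2 was at -3.33 log2, with its other probes at -2.40 and -4.24 log2. The kinase gene Pim1 was at 0.45 log2. Of 18 STAT6 targets, 7 were not well above background on either array, among them Arg1 and Retnla, which IL-4 induces in alternatively activated macrophages. Of the 11 measured, 2 were higher by 2-fold or more and 4 lower, with a median of -0.01 log2. The median was -0.81 log2 with the mean over probes and -0.41 log2 with no filter on background, and under each 5 were at least 2-fold lower. Mgl2 was at 0.10 log2 by its brighter probe and at -2.50 log2 by its dimmer probe. Those higher were Tgm2 at 1.51 log2 and the chemokine gene Ccl24 at 1.12 log2, which was at 0.90 log2 with the model-based background correction. Those lower were Chil3, a chitinase-like protein of alternatively activated macrophages, with a bound of -8.26 log2 (-5.86 log2 with the model-based background correction), Irf4 with a bound of -3.85 log2 (-1.87 log2 with that correction), Pparg at -2.05 log2 and the lectin Clec10a at -1.94 log2. Chil3 and Irf4 were measured in primary macrophages only, and 2 of the 4 remained when both arrays had to be well above background.

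**Figure D4:**
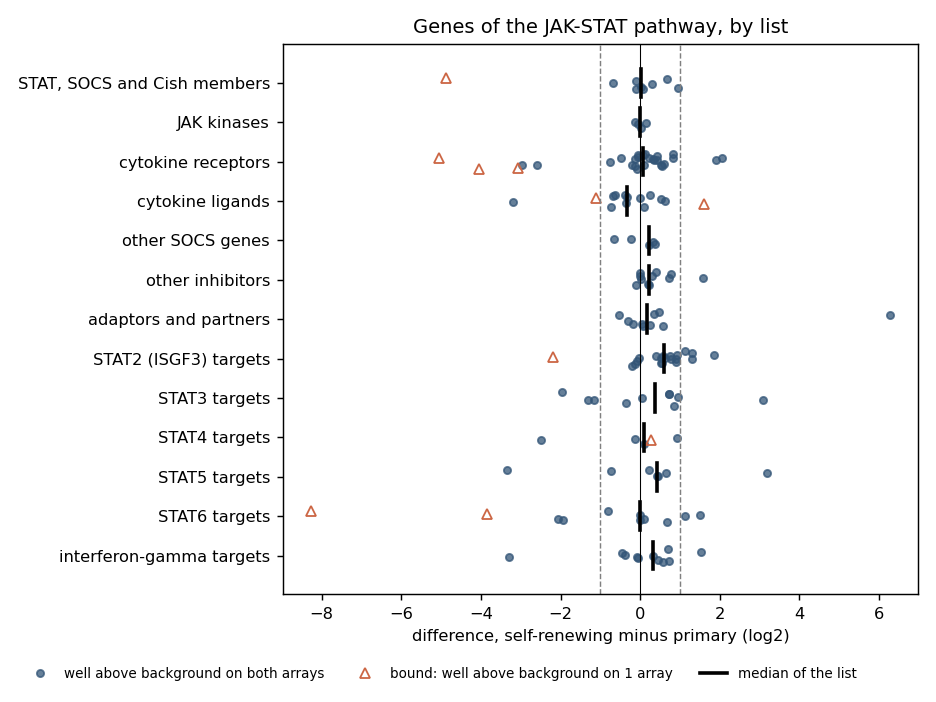
Difference between self-renewing and primary macrophages, in log2, for the genes of each list that were measured on at least 1 array. Circles were measured on both arrays, triangles are bounds for genes measured on 1 array, bars are list medians and dashed lines mark 2-fold. The 4 JAK kinases lie between -0.12 and 0.14 log2, and the 28 receptors measured spread from a bound of -5.06 to 2.06 log2.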

How the data were processed

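Cy3-labelled RNA of 1 primary and 1 self-renewing macrophage culture was hybridised to SurePrint G3 mouse arrays (Agilent), and each sample was grouped by its title. The authors deposited the output of Feature Extraction 11.5.1.1, in which intensity is background-subtracted and detrended within the array, and flags mark spots well above background, saturated or outlying. The authors also deposited a table of the same intensity values times 1 constant per array, 1.07 and 1.19, chosen in a way not given in the sources used here.

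Here log2 intensity was expressed relative to the 75th percentile of gene probes per array. Spots for controls and, per array, 63 outlier gene spots were removed, and 0 spots were saturated. Accessions matched 58.3% of probes to genes of GRCm38.p6, and no coordinates came from that match, since the array design is on an earlier build, but only from the RefSeq promoter table. A gene was represented by its brightest probe measured. Bounds were set against the lowest signal well above background, or the probe's own signal where higher. Named genes are all members and, from 12 pathway lists, up to 4 past 2-fold in each direction and whole lists of 5 genes or fewer. Other list genes given (Il12rb2, Il2rg, Il3ra, Irf9, Bcl3, Pim1, Mgl2 and those not well above background) lie outside this rule and were chosen after their values were seen. Genes with a pattern like that of a member were not searched for, since 2 arrays give 1 difference per gene. The members and lists were chosen with earlier results of these data known. Alternatives were normexp (offset 50, limma 3.58.1, R 4.3.3), 3 scalings, the authors' scaled values, 2 background filters and the mean over probes. Intervals use the scanner's spot error. The steps were tested on simulated data with Python 3.11.15, numpy 2.4.6 and pandas 2.3.3.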

Additional observations from a re-analysis of the deposited data

How the results depend on the processing

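No paired analysis was possible because there is 1 array for each culture. A value counted as unchanged if it shifted by under 0.33 log2, the spread between probes of a gene, and a count when it stayed within 1.5 times. Of the 551 values recomputed under 8 alternatives, 501 were unchanged by this measure, 50 moved and 0 of those at least 2-fold changed direction. The 1.5-fold counts were added after the data were seen.

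With the authors' scaled values 1 member gene, Socs3, was at least 2-fold higher. With only probes well above background on both arrays 0 members were at least 2-fold lower, because Stat4 then has no value, and 782 of all genes were. With normexp, which adds an offset to every signal and so draws dim genes together, 429 of all genes were at least 2-fold higher and 750 lower, and with no filter on background 1192 and 2336, over 22910 genes. The median of the ligands was 0.10 log2 and that of the STAT6 targets -0.41 log2 with no filter. With the mean over probes the STAT6 targets were at -0.81 log2 and the other SOCS genes at -0.24 log2. The median over the members ranged from -0.10 to 0.22 log2 and was below 0 under 3 alternatives. The direction of Stat2, Stat3, Stat5a and Stat5b was not fixed, with 1 or 2 alternatives on the other side of 0 for each. Probes near background, Cish among them, are the least precise, and 1 array per cell type limits every value.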
